A study of Homo sapiens with 6 samples.

Results

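The IL6 family is described here by 10 genes, the cytokines IL6, IL11, LIF and CLCF1, the receptors IL6R, IL6ST, LIFR and OSMR, the transcription factor STAT3 and the feedback inhibitor SOCS3. The members were taken by gene symbol, as every probe set that the platform annotation pairs with 1 gene of that list. A probe set is a group of short probes read together as 1 measurement of a transcript. Of the 10 genes, 9 had 30 probe sets between them, out of 41091 single-gene probe sets for 19775 genes on the array. The annotation used here pairs none with CLCF1, which was not analysed here.

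RNA came from SK-Hep1, a long-cultured human cell line established from a hepatic adenocarcinoma, on 6 single-colour arrays, 1 per sample. The anti-miR-21 group (3 arrays) was lipid-transfected with 20 nM of an oligonucleotide directed against the microRNA miR-21, and the mock group (3 arrays) received PBS in its place. Cells of both groups were plated 24 hours before transfection and collected 16 hours after it. No group received a different oligonucleotide, so a response to any oligonucleotide and a response to blocking miR-21 cannot be told apart. Mature miR-21 was not measured in these values, so the extent of its blockade is not known here. The collection protocol cites an Argonaute pull-down procedure whereas the samples are labelled total RNA, and which of them was hybridised is not settled by the labels. The replicates are called biological with no word on separate cultures, so the p values cover the variation among these 6 samples, which may be technical.

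IL6 binds the receptor chain IL6R, in its membrane or its shed soluble form, and the complex recruits IL6ST (gp130), the signalling chain that most of the family shares. IL11 uses its own alpha chain with IL6ST, LIF pairs IL6ST with LIFR, and oncostatin M pairs it with OSMR or LIFR. The receptors activate JAK kinases and STAT3, and STAT3 induces SOCS3, which binds IL6ST and shuts the pathway down. In the liver this axis drives the acute phase response, and the miR-21 gene is itself a reported STAT3 target. The microRNA that the oligonucleotide was directed against is shown because it defines the treatment, with the seed, bases 2 to 8, in capitals. The sequence is from RefSeq (GRCh38.p14, chr17:59841273-59841294, plus strand).
hsa-miR-21-5p: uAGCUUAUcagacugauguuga

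Values are the authors' GCRMA log2 expression values, on which 1 unit is a 2-fold difference. Array medians lay between 3.02 and 3.16, so values of 2 to 3 are at the bottom of the scale. Probe sets averaging 4 or more over the 6 arrays were tested with limma, with p adjusted by Benjamini-Hochberg over all 22408 kept. Of the 30 probe sets of the family, 20 passed that filter and 8 genes had at least 1 of them. The other 10 ranged from 1.85 to 3.73 over all arrays and include both probe sets of IL11. Of the 20 tested, 2 rose with anti-miR-21, those of IL6 and IL6R, none fell and 18 did not pass. Over all tested probe sets, 1.1% were called higher and 1.07% lower. By the brightest kept probe set of each gene, 2 of 8 family genes rose and none fell, against 0.913% higher and 1.22% lower among all 10848 genes.

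Between arrays, correlations over kept probe sets were 0.9939 to 0.9983. On the first principal component, which held 50.4% of the variance, the anti-miR-21 arrays lay at -3.51, -20.11 and -19.63 and the mock arrays at 7.25 to 19.95, so anti-miR-21 replicate 1 was nearest to mock. The 3' minus 5' difference of the ACTB control probe sets, a measure of RNA integrity, was 0.589 to 0.606 log2 units with anti-miR-21 and 0.491 to 0.628 in mock. For the GAPDH controls it was -0.285 to -0.263 with anti-miR-21 and -0.278 to -0.258 in mock, and both measures overlapped between groups. The hepatocyte genes ALB, TTR, APOA1 and APOB were below the filter, as were the leukocyte marker PTPRC and the endothelial markers PECAM1, VWF and CDH5. Above it were the hepatocyte gene SERPINA1 (11.94 to 11.99 with anti-miR-21, 11.82 to 11.93 in mock) and the endothelial genes ENG (10.30 to 10.61 with anti-miR-21, 10.19 to 10.37 in mock), ROBO4 (8.42 to 8.62 with anti-miR-21, 7.90 to 8.35 in mock) and EGFL7 (7.23 to 7.40 with anti-miR-21, 7.39 to 7.59 in mock). Closer to the filter were the hepatocyte genes AFP (mean 4.22 over the 6 arrays) and TF (4.02) and the endothelial gene TEK (4.66). Their groups overlapped, and AFP had a log2 fold change of -0.12 (adjusted p = 0.454 by limma). The groups did not overlap for SERPINA1 (log2 fold change 0.10, adjusted p = 0.359 by limma) and ROBO4 (0.48, adjusted p = 0.131 by limma). Of all kept probe sets, 24% did not overlap, in either direction. Of the markers with a probe set, 3 of 9 hepatocyte, 4 of 10 endothelial and 1 of 7 leukocyte genes were kept and none was called in either direction (limma, with 1 endothelial marker higher and 1 lower at an unadjusted p under 0.05). Among all genes, 6.84% were higher and 11.3% lower at that threshold. As log2 of the summed linear values, the leukocyte list lay at 6.26 to 6.38 with anti-miR-21 and 6.20 to 6.23 in mock, and the hepatocyte list at 11.97 to 12.01 with anti-miR-21 and 11.85 to 11.95 in mock. The endothelial list lay at 10.87 to 11.05 with anti-miR-21 and 10.68 to 10.89 in mock, so the first 2 lists separated the groups and the third overlapped. The hepatocyte sum is nearly all SERPINA1, and in the leukocyte list CD14 was the 1 gene kept. CD14 was at 5.25 to 5.58 with anti-miR-21 and 5.23 to 5.27 in mock, so its groups overlapped (adjusted p = 0.574 by limma). The separation of the leukocyte sum therefore also rests on genes below the filter. The part of these differences in the results below was not tested.

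Among the ligands IL6 rose and LIF did not pass, and the difference between them was not tested. IL6, the inflammatory member, was at 10.48, 10.78 and 10.84 with anti-miR-21, against 9.89, 10.01 and 9.96 in mock. Every anti-miR-21 array lay above every mock array, with replicate 1 the lowest of its group. IL6 averaged 10.70 ± 0.19 with anti-miR-21 and 9.95 ± 0.06 in mock (SD, n = 3 each), a 1.68-fold rise with a log2 fold change of 0.74 ± 0.10 (SE; adjusted p = 0.0198 by limma). In bulk RNA, more cells making a transcript and more transcript per cell cannot be told apart. The call was kept when anti-miR-21 replicate 1 was left out (limma adjusted p = 0.00788) and lost without any 1 of the other 5 arrays (limma adjusted p = 0.0527 to 0.0887), while the fold change stayed between 0.68 and 0.85 on the log2 scale.

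LIF, which maintains stem cells in mouse culture and acts through LIFR, did not pass. On its 1 probe set it was at 9.83, 9.90 and 10.03 with anti-miR-21, against 9.84, 9.85 and 9.97 in mock. The groups overlapped, with a log2 fold change of 0.03 ± 0.07 (SE; adjusted p = 0.839 by limma) and a 95% interval of -0.13 to 0.20. IL11, a cytokine linked to fibrosis, was at 2.48, 2.59 and 2.60 with anti-miR-21 and 2.57, 2.54 and 2.46 in mock on 1 probe set. Its second probe set stayed between 3.01 and 3.05 on all arrays, so no level above the bottom of the scale was measured for IL11 in either group.

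**Figure D1:**
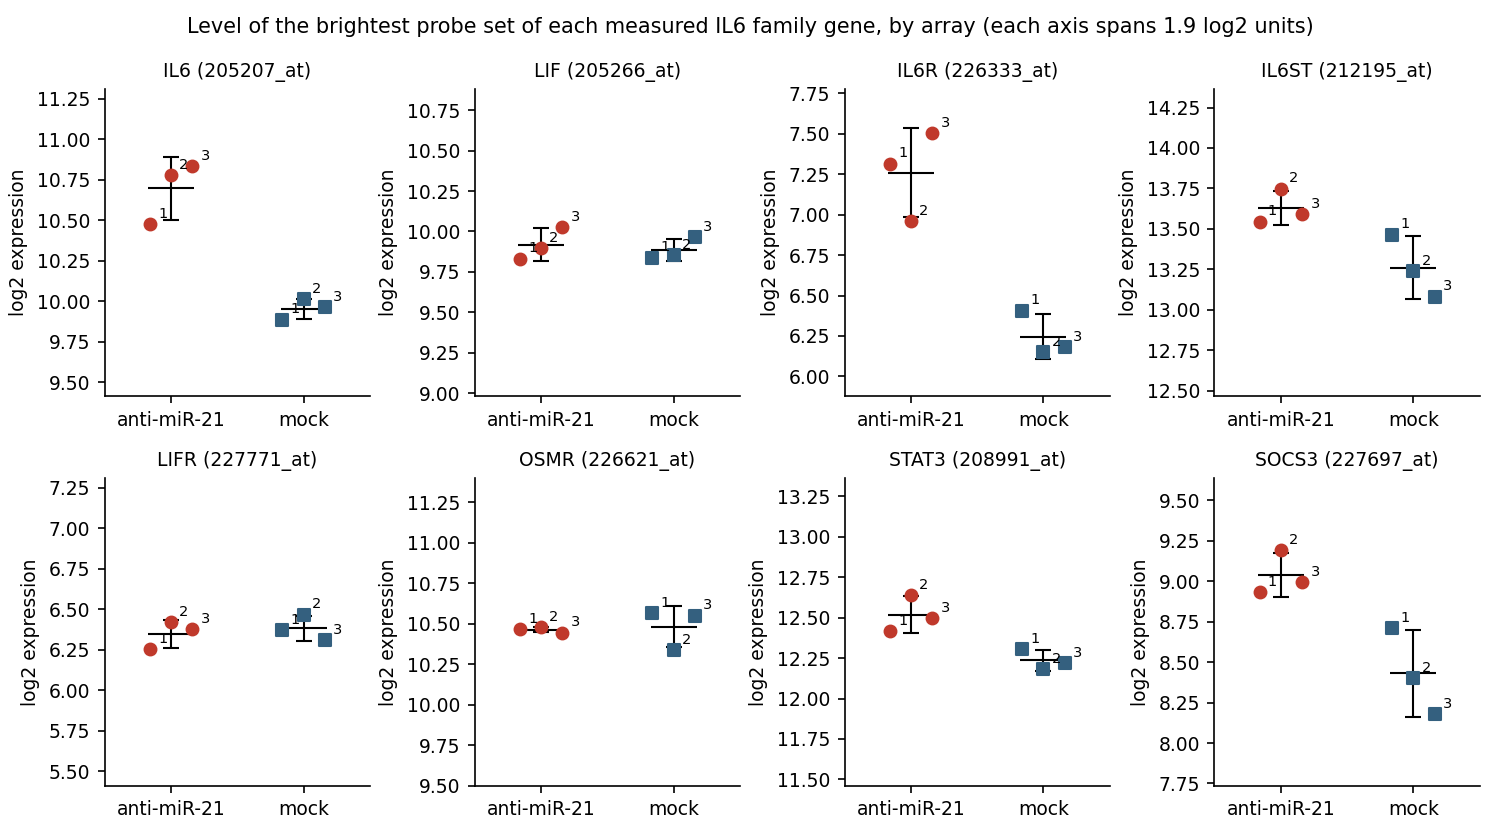
Log2 expression of the brightest kept probe set of 8 IL6 family genes in each array, anti-miR-21 (circles) and mock (squares), numbered by replicate, with the mean and SD of 3 arrays as bars. The groups stand apart for IL6, IL6R, IL6ST, STAT3 and SOCS3, of which IL6 and IL6R are called, and overlap for LIF, LIFR and OSMR.

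Among the receptors, IL6R, the chain specific to IL6, had the largest fold change of the family. Its probe set 226333_at was at 7.32, 6.96 and 7.50 with anti-miR-21, against 6.41, 6.15 and 6.18 in mock. The groups did not overlap, and here replicate 2 was the lowest anti-miR-21 array. Means were 7.26 ± 0.28 with anti-miR-21 and 6.24 ± 0.14 in mock (SD, n = 3 each), a 2.02-fold rise with a log2 fold change of 1.01 ± 0.14 (SE; adjusted p = 0.0231 by limma). A second IL6R probe set, below the filter and untested in this fit, was at 3.17, 3.34 and 3.73 with anti-miR-21 and 2.82, 2.65 and 2.70 in mock. It too separated the groups, with the mock arrays at the bottom of the scale, and with no filter its limma adjusted p was 0.139. The third probe set lay between 2.59 and 2.79 on all arrays, so the rise of IL6R rests on 1 probe set. That call was lost without mock replicate 2 or 3 or anti-miR-21 replicate 1 or 3 (limma adjusted p = 0.0527 to 0.101), with no filter (0.0556), and kept without anti-miR-21 replicate 2 or mock replicate 1 (0.0238 and 0.0407).

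The shared signalling chain IL6ST had 5 kept probe sets, all with a positive log2 fold change, of 0.20 to 0.37, and none called. The brightest, 212195_at, was at 13.54, 13.75 and 13.59 with anti-miR-21 and 13.46, 13.24 and 13.08 in mock. The groups did not overlap, but mock replicate 1 lay within 0.1 of an anti-miR-21 array, and the log2 fold change of 0.37 ± 0.11 (SE) had an adjusted p of 0.146. The next brightest, 212196_at, had a log2 fold change of 0.20 ± 0.08 (SE; adjusted p = 0.265 by limma) with overlapping arrays. The 3 dimmer kept probe sets lay at 0.28 to 0.30 log2 units with SEs of 0.15 to 0.33, and in 211000_s_at both anti-miR-21 replicate 2 (6.21) and mock replicate 1 (6.08) stood above the other arrays (5.07 to 5.44). With 1 array left out, the log2 fold change ran from 0.024 (without anti-miR-21 replicate 2) to 0.62 (without mock replicate 1) for 211000_s_at. It ran from 0.15 (without anti-miR-21 replicate 2) to 0.51 (without anti-miR-21 replicate 1) for 204863_s_at, and for 204864_s_at it was 0.12 without anti-miR-21 replicate 3. RefSeq also lists a pseudogene of IL6ST, IL6STP1, and how far these probe sets share its signal was not tested.

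LIFR and OSMR, partner chains of IL6ST for other family cytokines, did not pass on any probe set. The brightest LIFR probe set was at 6.25, 6.42 and 6.38 with anti-miR-21 and 6.37, 6.47 and 6.31 in mock, a log2 fold change of -0.03 ± 0.07 (SE; adjusted p = 0.84 by limma) with a 95% interval of -0.19 to 0.13. Both of its other kept probe sets were at a log2 fold change of 0.13, and in 1 of them, 225575_at, the groups did not overlap (adjusted p = 0.491 by limma). The brightest OSMR probe set was at 10.47, 10.48 and 10.45 with anti-miR-21 and 10.56, 10.34 and 10.55 in mock. That is a log2 fold change of -0.02 ± 0.07 (SE; adjusted p = 0.909 by limma) with a 95% interval of -0.19 to 0.15. Log2 fold changes of the other 2 OSMR probe sets were 0.03 and 0.11, and all 3 overlapped between groups.

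**Figure D2:**
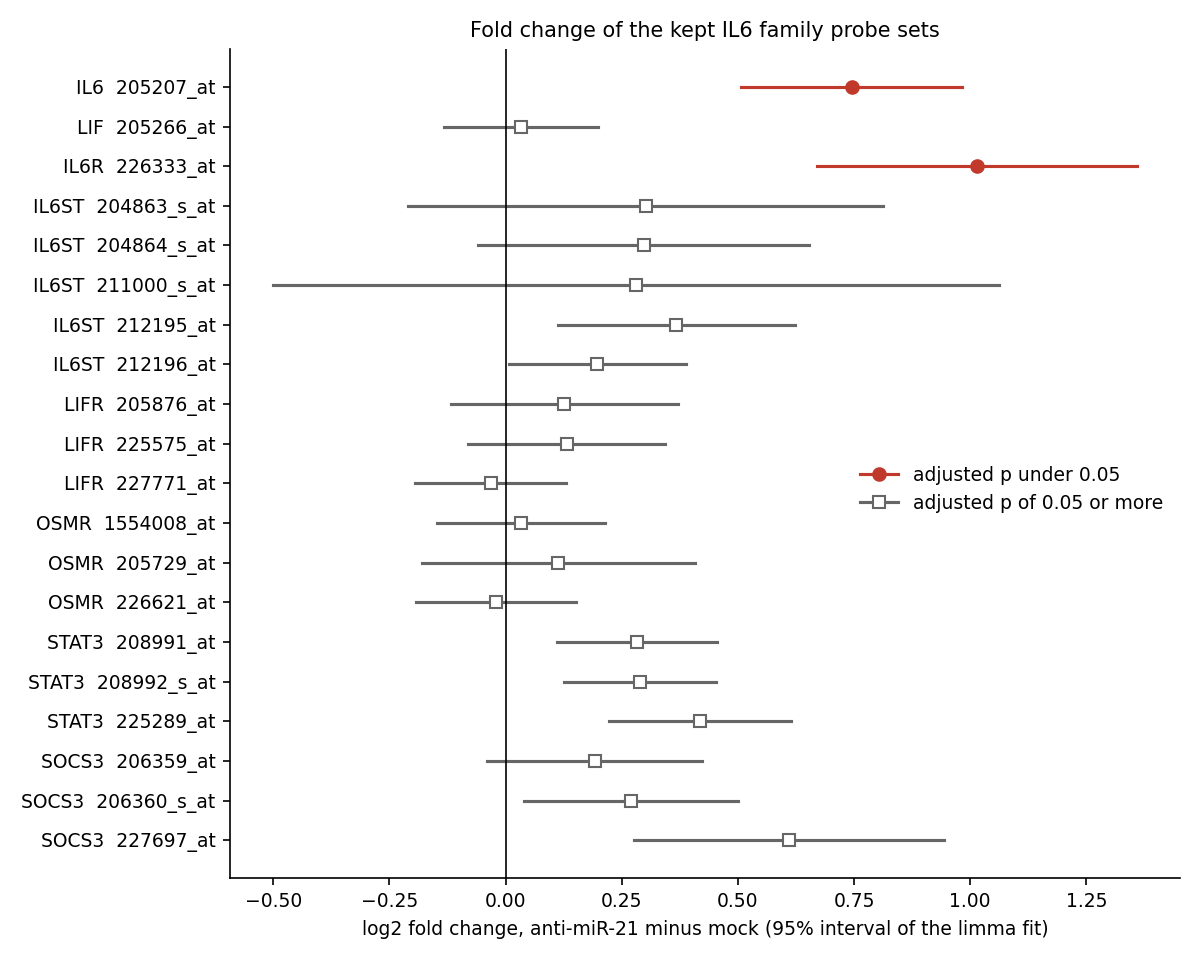
Log2 fold change, anti-miR-21 minus mock, of the 20 kept probe sets of the family with the 95% interval of the limma fit, with filled circles for adjusted p under 0.05. Only IL6 and IL6R 226333_at are called. Uncalled intervals above 0 are those of the 3 STAT3 probe sets, IL6ST 212195_at and 212196_at, and SOCS3 206360_s_at and 227697_at. The others, with all of LIF, LIFR and OSMR, span 0.

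STAT3, the transcription factor that the receptors activate, had 3 kept probe sets, which measure 1 RNA. None was called, and in all of them every anti-miR-21 array lay above every mock array, as in 11.4% of all kept probe sets. Probe set 225289_at was at 9.95, 10.22 and 10.19 with anti-miR-21, against 9.71, 9.64 and 9.74 in mock, with a log2 fold change of 0.42 ± 0.08 (SE; adjusted p = 0.0602 by limma). The brightest, 208991_at, was at 12.42, 12.64 and 12.50 with anti-miR-21 and 12.30, 12.18 and 12.22 in mock, with 0.28 ± 0.07 (SE; adjusted p = 0.112 by limma). The third, 208992_s_at, had 0.29 ± 0.07 (SE; adjusted p = 0.0946 by limma). In all 3, anti-miR-21 replicate 1 was the lowest of its group. Without that array 225289_at and 208992_s_at passed (limma adjusted p = 0.023 and 0.0447), and 225289_at also passed with the filter at 6 (0.041). The arrays measure STAT3 transcript, not the phosphorylated protein.

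SOCS3, the feedback inhibitor, had 3 kept probe sets with positive log2 fold changes of 0.19 to 0.61, none called. The brightest, 227697_at, was at 8.93, 9.19 and 8.99 with anti-miR-21, against 8.71, 8.40 and 8.18 in mock. The groups did not overlap, yet the mock arrays ran from 8.18 to 8.71, and the log2 fold change of 0.61 ± 0.14 (SE) had an adjusted p of 0.0888. It passed without mock replicate 1, the highest mock array (limma adjusted p = 0.0397), and with the gene's probe sets averaged (log2 fold change 0.36, limma adjusted p = 0.0185). Probe set 206360_s_at was at 5.93, 5.81 and 5.76 with anti-miR-21 and 5.37, 5.65 and 5.67 in mock (log2 fold change 0.27, limma adjusted p = 0.216). For 206359_at the log2 fold change was 0.19 (limma adjusted p = 0.362), and its groups overlapped.

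Probe sets of 1 gene were also compared with each other. For every array the average of a gene's remaining kept probe sets was subtracted from each one, and limma was run on the result. None of the 17 probe sets of IL6ST, LIFR, OSMR, STAT3 and SOCS3 moved apart from its partners, against 1.03% of 14103 probe sets tested in this way. The smallest p belonged to SOCS3 227697_at, whose log2 fold change exceeded that of the gene's other probe sets by 0.38 ± 0.16 (SE; adjusted p = 0.443 by limma).

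Over the 20 kept probe sets, 18 had a positive log2 fold change and the median was 0.28, against -0.003 over all kept probe sets. At an unadjusted limma p under 0.05, 9 were higher and none lower. At that threshold 1806 of all 22408 kept probe sets (8.06%) were higher, and 3979 were either higher or lower. By the brightest kept probe set of each gene, 6.84% of all genes were higher and 11.3% lower. In 10 of the 20, every anti-miR-21 array lay above every mock array, and the reverse held for none. Of all kept probe sets, 11.4% showed the first pattern and 24% showed either 1 of them. Probe sets of 1 gene measure the same RNA and are not independent, and 17 of the 20 belong to IL6ST, LIFR, OSMR, STAT3 and SOCS3. The members were also chosen with earlier results of these data known. Relative to the mock mean, the median shift of the 20 was 0.11, 0.23 and 0.29 in anti-miR-21 replicates 1, 2 and 3, and 0.06, -0.03 and -0.02 in the mock arrays. The smallest shift with anti-miR-21 was thus in replicate 1, the array nearest to mock on the first principal component.

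**Figure D3:**
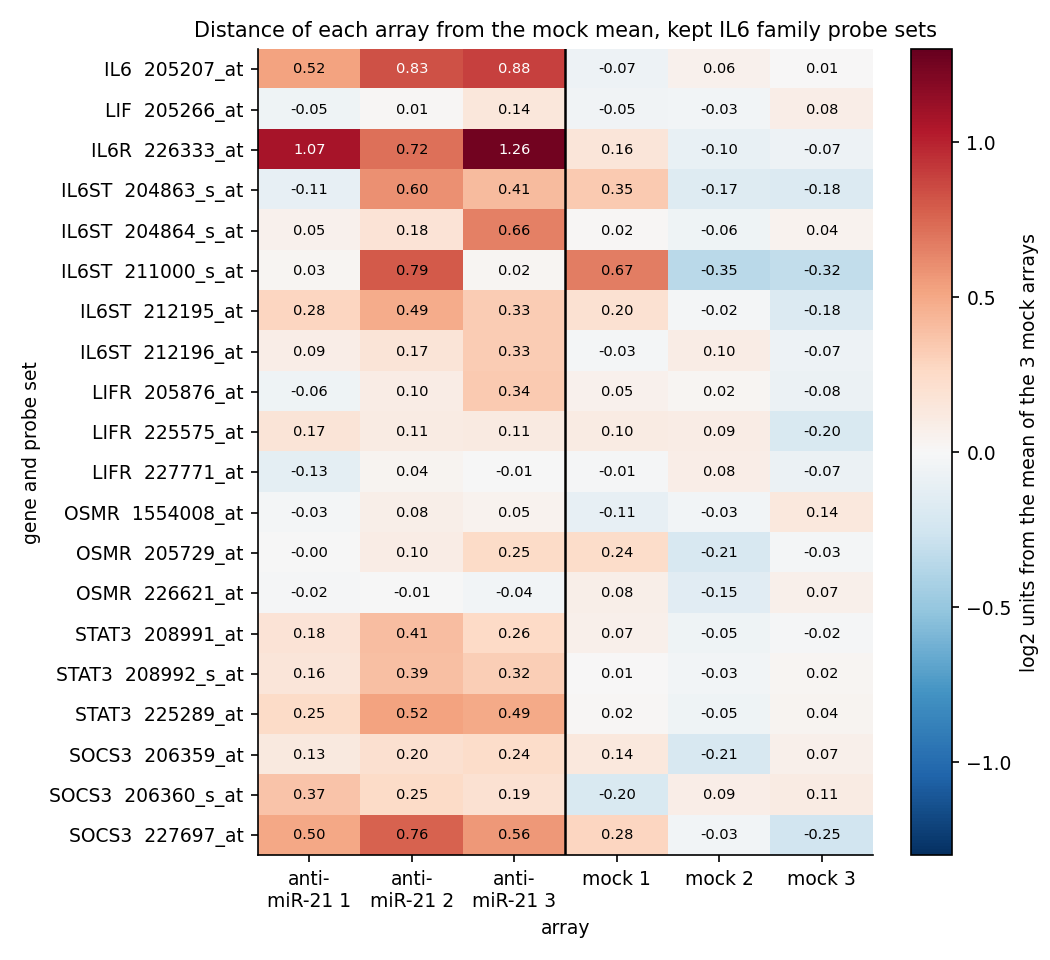
Distance in log2 units of each array from the mean of the 3 mock arrays for the 20 kept probe sets (red above, blue below), with anti-miR-21 arrays on the left. IL6 is up by 0.52, 0.83 and 0.88 in the 3 anti-miR-21 arrays, IL6R by 1.07, 0.72 and 1.26, and mock replicate 1 is the high mock array for IL6ST 211000_s_at (0.67) and SOCS3 227697_at (0.28).

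Promoter sequence was read for the members because NF-κB, C/EBP and AP-1 sites are known to control IL6. RefSeq windows of 300 bases, 250 before and 50 after a start site (GRCh38.p14), were found for 8 of the 10 genes, with 3 start sites for LIFR and 2 for SOCS3. They were searched on both strands for an NF-κB motif (GGG, any 2 bases, TTTCC), AP-1 (TGANTCA), a cyclic AMP response element (TGACGTCA), STAT (TTCNNNGAA) and C/EBP (TTGCNNAA). Of all 35116 windows of this length, 1.91% held the NF-κB motif, 7.71% AP-1, 1.85% the cyclic AMP element, 7.66% STAT and 10.5% C/EBP. The windows of IL6 and IL6R, the genes that rose, are shown with that of OSMR, a gene well above the filter and not called. Capitals mark the motif matches. IL6 lies at chr7:22726950-22727249 (plus strand), IL6R at chr1:154405093-154405392 (plus strand) and OSMR at chr5:38845762-38846061 (plus strand).
IL6: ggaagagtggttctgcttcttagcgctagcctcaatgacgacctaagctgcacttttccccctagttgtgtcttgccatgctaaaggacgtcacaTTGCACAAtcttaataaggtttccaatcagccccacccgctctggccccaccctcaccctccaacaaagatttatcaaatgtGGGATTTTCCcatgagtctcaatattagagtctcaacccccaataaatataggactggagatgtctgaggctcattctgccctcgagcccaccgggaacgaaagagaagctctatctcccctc
IL6R: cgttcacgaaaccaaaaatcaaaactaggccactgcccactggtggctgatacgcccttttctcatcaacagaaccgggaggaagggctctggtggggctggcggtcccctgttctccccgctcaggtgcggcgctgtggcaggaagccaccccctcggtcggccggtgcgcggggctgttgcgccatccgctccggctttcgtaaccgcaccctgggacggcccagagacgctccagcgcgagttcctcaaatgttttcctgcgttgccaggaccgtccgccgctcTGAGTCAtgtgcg
OSMR: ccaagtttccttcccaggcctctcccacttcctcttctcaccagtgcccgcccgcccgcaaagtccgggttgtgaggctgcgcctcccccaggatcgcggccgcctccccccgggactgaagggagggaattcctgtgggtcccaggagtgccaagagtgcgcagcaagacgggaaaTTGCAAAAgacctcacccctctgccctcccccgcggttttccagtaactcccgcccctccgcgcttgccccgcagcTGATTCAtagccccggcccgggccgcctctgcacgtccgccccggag

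The IL6 window held the NF-κB motif as GGGATTTTCC 73 bases before the start site and a C/EBP match, TTGCACAA, 155 bases before it. It was the only member window with the NF-κB motif in the form searched, among the 11 windows. The search was prompted by the known IL6 sites, and looser forms of the motif were not searched. The IL6R window held 1 match, an AP-1 motif 38 bases after its start site. OSMR held an AP-1 match at base 4 after the start site and a C/EBP match 73 bases before it. Both STAT matches lay in LIFR windows, 165 and 182 bases before 2 of its start sites, the second of which also held a C/EBP match 31 bases before it, and no motif was matched in those of IL6ST, STAT3 or SOCS3. IL11 held an AP-1 match 96 bases before its start site. Sequence beyond these windows was not searched, so an AP-1 site of IL6 further upstream would not be seen. No motif shows more than 1 match in any window and no 2 matches overlap.

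**Figure D4:**
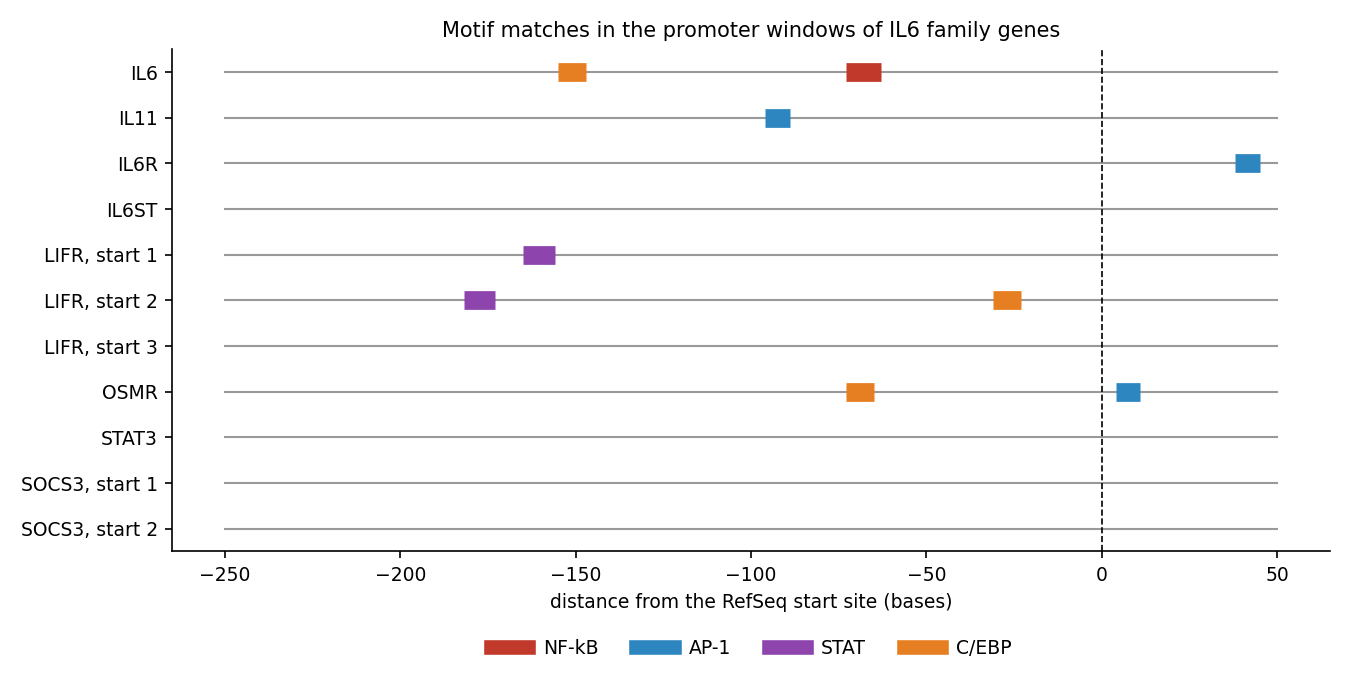
Motif matches along 11 RefSeq promoter windows of 8 IL6 family genes, by distance in bases from the start site (dashed line). In the form searched, the NF-κB motif appears only in the IL6 window. AP-1 appears in those of IL11, IL6R and OSMR, C/EBP in those of IL6, OSMR and LIFR, and 5 windows hold none of the motifs.

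The rest of the pathway was read from 3 gene lists, with each gene represented by its brightest probe set. Among other ligands and receptors of the family, 9 of 11 genes had a single-gene probe set, 4 were kept and none was called in either direction (limma, 1 higher and 0 lower at an unadjusted p under 0.05). Among all genes, 6.84% were higher and 11.3% lower at that threshold. The receptor chain IL27RA was at 8.74, 8.82 and 8.79 with anti-miR-21 and 8.53, 8.22 and 8.45 in mock, a log2 fold change of 0.38 ± 0.09 (SE; adjusted p = 0.0867 by limma). EBI3, the IL27 subunit that resembles a soluble receptor, had 0.10 (adjusted p = 0.39) and the IL11 receptor chain IL11RA -0.01 (limma adjusted p = 0.969). The ligands OSM, CTF1, CNTF and IL27 were below the filter.

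Among JAK-STAT transducers and regulators, 24 of the 27 genes with a probe set were kept and none was called in either direction (limma, 2 higher and 3 lower at an unadjusted p under 0.05). At that threshold 6.84% of all genes were higher and 11.3% lower. Their median log2 fold change was -0.02, against -0.02 over all genes tested, and 10 of 24 were positive. SOCS1, another inhibitor of JAK kinases, was at 7.97, 8.08 and 7.98 with anti-miR-21 and 8.53, 8.21 and 8.47 in mock. Its groups did not overlap, with a log2 fold change of -0.39 ± 0.09 (SE; adjusted p = 0.0888 by limma), opposite in sign to SOCS3, and with its probe sets averaged it was at -0.20 (adjusted p = 0.125 by limma). PTPN1, a phosphatase that acts on JAK kinases, had 0.24 (limma adjusted p = 0.0888) and SOCS5, a further SOCS protein, 0.45 (limma adjusted p = 0.15). The SOCS5 probe set is of the kind named x_at, which may match several transcripts. With its probe sets averaged SOCS5 was at 0.37 (adjusted p = 0.0598 by limma).

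Of 28 genes reported as STAT3 targets or acute phase genes, 25 had a probe set and 15 were kept. Of these, 2 rose and 13 did not pass, with none called lower and with 6 higher and none lower at an unadjusted limma p under 0.05. Over all genes, 0.913% were called higher, and 6.84% were higher and 11.3% lower at the unadjusted threshold. CEBPD, a C/EBP transcription factor of the acute phase response, was at 9.30, 9.36 and 9.34 with anti-miR-21, against 8.63, 8.57 and 8.57 in mock. It rose 1.68-fold, with a log2 fold change of 0.74 ± 0.05 (SE; adjusted p = 0.00208 by limma), and was called with any 1 array left out. BCL6, a transcriptional repressor, was at 9.53, 9.60 and 9.53 with anti-miR-21 and 9.19, 9.18 and 9.27 in mock, a log2 fold change of 0.34 ± 0.05 (SE; adjusted p = 0.028 by limma). BCL6 was no longer called when any 1 array was left out (limma adjusted p = 0.0522 to 0.129) and with probe sets averaged (0.153). The adhesion molecule ICAM1 had 0.39 ± 0.08 (SE; adjusted p = 0.0695 by limma) and passed with the filter at 6 (0.0485) and with probe sets averaged (0.0313). The median of the kept genes was 0.21 and 14 of 15 were positive. The list was chosen with earlier results of these data known, so these counts describe it and were not tested as a set. The hepatocyte acute phase genes FGA, FGB, FGG, HP, LBP, CRP, SERPINA3, A2M and HAMP were below the filter.

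**Figure D5:**
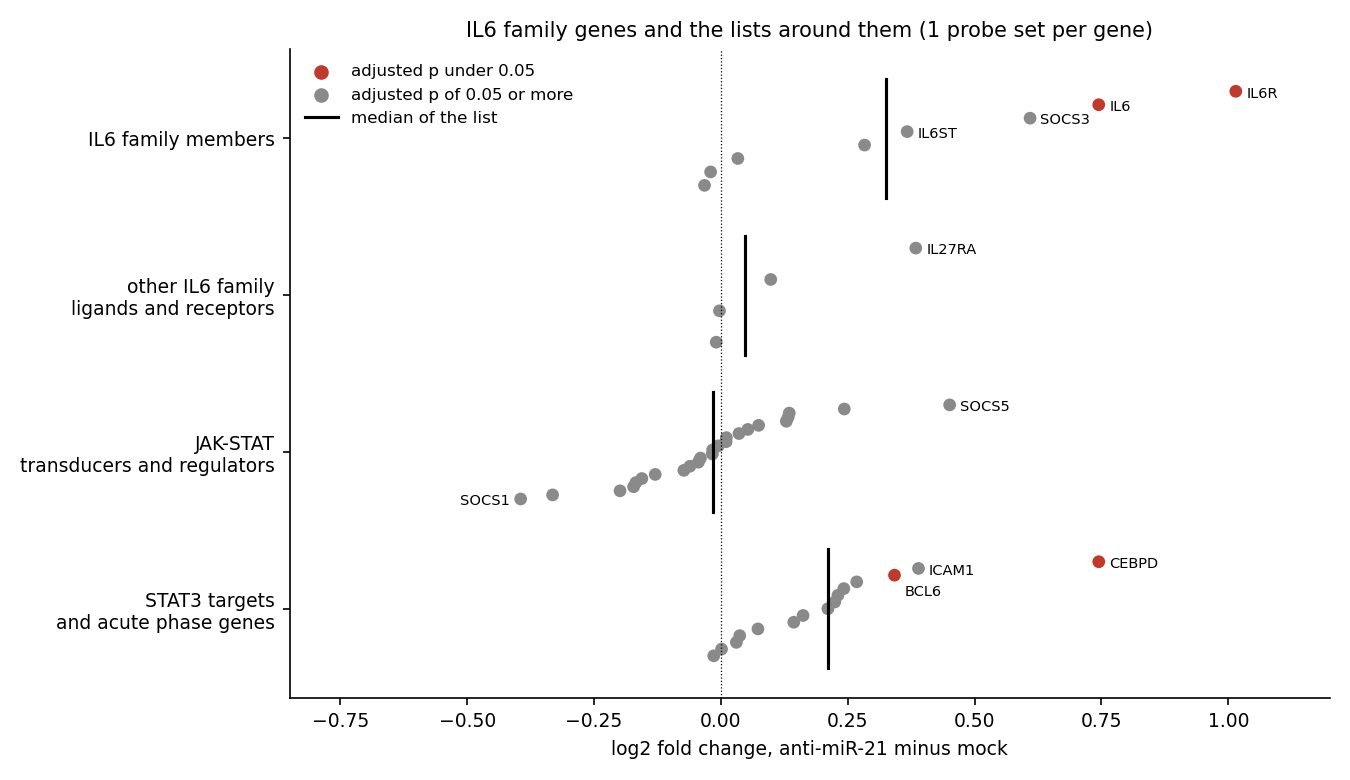
Log2 fold change, anti-miR-21 minus mock, of each kept gene (1 point per gene, brightest probe set) among the IL6 family members and 3 lists of the pathway, with the list median as a bar and called genes in red. IL6R, IL6, CEBPD and BCL6 are called, and the JAK-STAT list is centred at -0.02.

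The genes whose profile over the 6 arrays was most like that of IL6 were found by the root mean square difference between log2 profiles, each centred on its own mean, over 10840 genes outside the family. The nearest was RSRP1, an arginine and serine rich protein gene, at a difference of 0.034 log2 units, followed by GOLGA8A, a golgin gene, at 0.066. Next came the cytokine IL1A at 0.071, the chemokine CXCL8 at 0.098 and JDP2, a repressor of AP-1, at 0.10. JDP2 was not called (adjusted p = 0.0976 by limma), and the others were called higher (limma adjusted p = 0.0250 to 0.0303). The measure includes the step between groups, so it favours genes with a fold change near that of IL6. IL1A was at 11.22, 11.54 and 11.72 with anti-miR-21 and 10.63, 10.69 and 10.63 in mock, and CXCL8 at 11.69, 12.08 and 12.12 with anti-miR-21 and 11.16, 11.19 and 10.97 in mock. The likeness is a description over 6 arrays, and the probe sets of RSRP1, GOLGA8A, IL1A and CXCL8 are of the kinds, named s_at or x_at, that may match several transcripts.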

How the data were processed

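The deposited values are log2 expression values, which the authors obtained by GCRMA according to the processing notes of the submitters. GCRMA removes background estimated from probe sequence, brings arrays to a common distribution and summarises each probe set. Its version and options are not given in the sources. It was run before deposit and could not be varied here, and folds of dim probe sets are less certain after it. Of 54675 probe sets, 62 controls were left out and 22408 averaging 4 or more were kept. Symbols come from the platform annotation, checked through Entrez identifiers against RefSeq (GRCh38.p14), which changed no symbol.

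The anti-miR-21 minus mock difference was tested, two-sided, by limma 3.58.1 (lmFit, eBayes; R 4.3.3) with 3 arrays per group and no covariate. P values were adjusted by Benjamini-Hochberg over all kept probe sets, with a threshold of 0.05. The fit was tested on simulated data. With 3 arrays per group, small differences may go undetected. The members and lists were chosen with earlier results of these data known. All member probe sets are described, singly or by range. Each list names its called genes and, where fewer than 3 passed, those with the smallest p up to 3, and likeness to IL6 names 5 genes. Alternatives were no filter, a filter at 6, median centring, quantile normalization, eBayes with trend and robust, a replicate block, probe sets averaged per gene and each array left out.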

Additional observations from a re-analysis of the deposited data

How the results depend on the processing

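The sign of the log2 fold change of IL6, IL6R, CEBPD and BCL6 was the same under all alternatives, and no family probe set was called lower in any. With no filter 1 family probe set was called higher, IL6 with adjusted p = 0.0433, where 158 were called higher over all probe sets. With the replicate block none of the family was called (IL6 limma adjusted p = 0.0523, IL6R 0.0554), 1 gene of the STAT3 target list was, and over all probe sets 54 were higher and 37 lower. The labels number replicates 1 to 3 in both groups, but same-numbered arrays did not deviate together (r = -0.361, -0.266 and -0.00187 over kept probe sets), so the numbers are not taken as pairs. Differently numbered arrays gave r from -0.232 (anti-miR-21 replicate 2 with mock replicate 3) to 0.399 (anti-miR-21 replicate 2 with mock replicate 1). What such arrays share was not tested. With probe sets averaged per gene 161 of 10848 genes were higher. Leaving out 1 array at a time gave 0 to 3 called family probe sets, with 0 without anti-miR-21 replicate 3, mock replicate 2 or mock replicate 3, and 1 to 2 called genes of the STAT3 target list. Over all probe sets it gave 47 to 345 higher and 47 to 227 lower. The signs of uncalled values near 0 changed. With 1 array left out, log2 fold changes ran from -0.021 to 0.077 for LIF, -0.068 to 0.016 for LIFR 227771_at, -0.021 to 0.10 for OSMR 1554008_at, -0.094 to 0.020 for OSMR 226621_at and -0.082 to 0.071 for IL11RA. With probe sets averaged LIFR was at 0.075 and OSMR at 0.042. The cause of these changes was not tested beyond the number of arrays and probe sets in each fit. The median log2 fold change of all kept probe sets was -0.003 as deposited, -0.004 with median centring and -0.006 with quantile normalization. The alternatives for the lists and their genes were added after seeing the data. Values near the bottom of the scale, as for IL11, bound what these arrays can show.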

Other observations

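Antisense transcripts are annotated at 2 family loci, and their probe sets were read outside the rule for named genes. IL6-AS1, a long noncoding RNA annotated opposite IL6, was at 8.06, 7.63 and 7.52 with anti-miR-21, against 7.67, 8.08 and 7.86 in mock. Its groups overlapped, with a log2 fold change of -0.13 ± 0.16 (SE; adjusted p = 0.715 by limma), while IL6 itself rose. The IL6R-AS1 probe set stayed between 2.56 and 2.67 on all arrays, below the filter.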
